A study of Mus musculus with 8 samples.

Results

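The end of mouse chromosome 11 was examined in ChIP-seq peak lists of 5 libraries, because the list of G9a peaks in rescue cells holds few peaks there. All peaks on chromosome 11 from 90 Mb to the end were taken in the mm9 build, where the chromosome is 121843856 bp long, except those from 96040001 to 96240000, which the rule leaves out. This gave 3657 peaks of the 174428 in all lists: 1604 of wild-type G9a, 1227 of rescue G9a, 151 and 397 of wild-type Ezh2 (libraries 0 and 1) and 278 of knockout Ezh2. The stretch was chosen by its ratio of rescue to wild-type G9a peaks, so that ratio, and the G9a scores, widths and overlaps compared along it, are given as a description with no test. The Ezh2 lists did not enter that ratio, but the 0.2 Mb left out held 72, 23 and 71 Ezh2 peaks (libraries 0 and 1 and knockout) against 5 wild-type and 10 rescue G9a peaks, so leaving it out bears mainly on the Ezh2 values.

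The cells were TT2 mouse embryonic stem cells, which come from a C57BL/6 by CBA cross and were grown with serum and LIF. Ezh2 was profiled in wild-type cells (2 libraries) and in G9a-/- GLP-/- cells, which lack both enzymes (1 library). G9a was profiled in wild-type cells (1 library) and in G9a-/- GLP-/- cells given back wild-type G9a (1 library), called the rescue. By their label these still lack GLP; the sources used here do not give how the G9a was expressed or whether the cells are 1 clone. The G9a samples were fixed with DSG, a protein crosslinker, before formaldehyde, and the Ezh2 samples with formaldehyde alone. There is no library of G9a in knockout cells without rescue, the lists hold no read counts, and with 1 library in every group but wild-type Ezh2 no difference between conditions has a replicate check.

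G9a (Ehmt2) and GLP (Ehmt1) form a complex that places mono- and dimethylation on lysine 9 of histone H3, a mark of silent chromatin that can lie over long domains. Ezh2 is the enzyme of Polycomb repressive complex 2 that methylates lysine 27 of the same histone, and in embryonic stem cells it sits mainly at CpG-rich promoters of developmental genes. Neither mark was measured here; the peaks report where the enzymes themselves were recovered.

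Rescue G9a peaks became rare beyond about 105.5 Mb, while wild-type G9a peaks went on at a similar density. The point was placed at the edge of a 0.5 Mb bin where a split into 2 shares of rescue peaks gained the most binomial log likelihood. That edge was 105.5 Mb, with a gain of 276 log-likelihood units; the next best edge, 106 Mb, gained 268. With every peak midpoint as a candidate the point fell between 105.17 and 105.19 Mb, and positions within 2 log-likelihood units of the best spanned 93.2 kb, from 105.15 to 105.24 Mb. These likelihoods treat peaks as independent of each other. In the 1.5 Mb before 105.5 Mb the lists held 80 wild-type and 116 rescue peaks, and in the 1.5 Mb after it 69 and 23. Within the bin from 105 to 105.5 Mb, 10 wild-type and 21 rescue peaks lay in the first 200 kb, and 13 and 3 lay in the last 300 kb, so the change falls inside this bin and not at its edge.

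On the proximal side, from 90 to 105.5 Mb (15.3 Mb without the stretch left out), there were 734 wild-type and 1068 rescue G9a peaks. On the distal side, the last 16.3 Mb, there were 870 and 159. The ratio of rescue to wild-type peaks was thus 1.46 before the point and 0.183 after it, a distal to proximal ratio of 0.126. Binomial 95% intervals were 1.32 to 1.60, 0.153 to 0.217 and 0.103 to 0.153; they cover the counting of peaks only, and not variation between cultures. In density, the wild type had 48.0 peaks per Mb on the proximal side and 53.2 on the distal side, and the rescue had 69.8 and 9.73. The drop therefore lay in the rescue list: its density fell to 0.139 of the proximal value, and that of the wild type was 1.11 of it. At the start of the stretch no such step was seen: the bin just outside (89.5 to 90 Mb) held 34 peaks of the wild type and 55 of the rescue, and the bin just inside held 29 and 47.

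**Figure D1:**
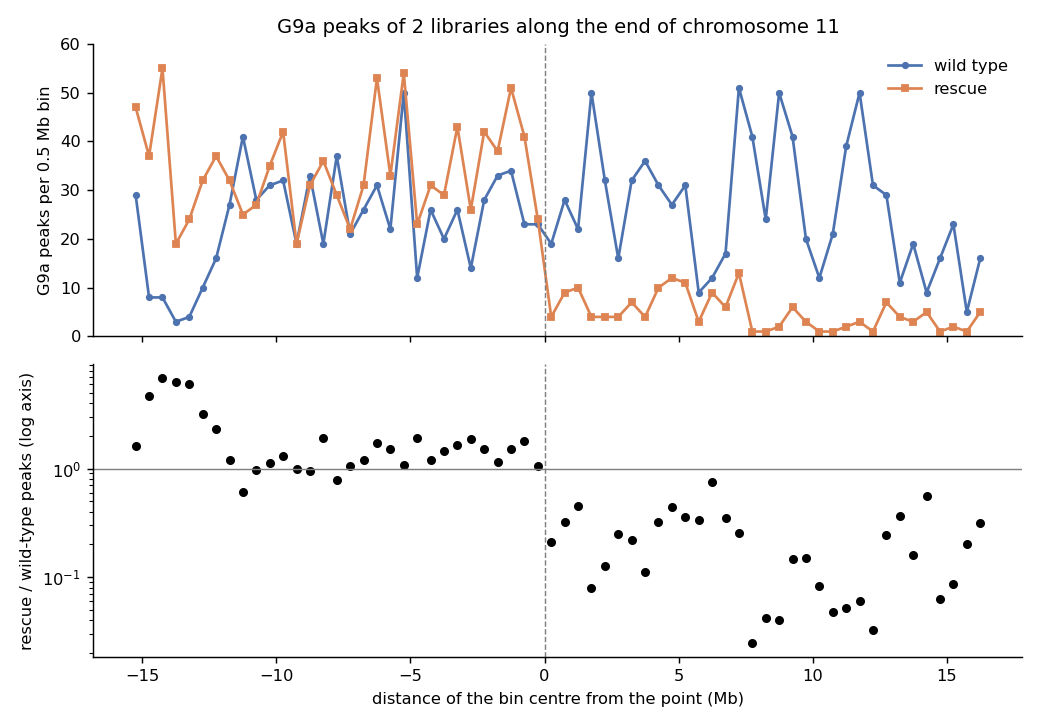
Number of G9a peaks per 0.5 Mb bin in the wild-type and rescue lists (top) and their ratio on a log axis (bottom), against the distance of the bin centre from the point in Mb; the last bin is shorter. Rescue bins hold 19 to 55 peaks before the point and 1 to 13 after it, while wild-type bins hold 3 to 50 and 5 to 51.

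The 2 sides did not overlap in the number of rescue peaks per bin. The 31 proximal bins held 19 to 55 rescue peaks with a median of 32, and the 33 distal bins held 1 to 13 with a median of 4. For the wild type the bins ranged from 3 to 50 (median 26) and from 5 to 51 (median 24), and the sides overlapped over almost the whole range. In the bin with the most distal peaks of both lists, from 112.5 to 113 Mb, there were 51 wild-type and 13 rescue peaks. The ratio in single bins lay between 0.610 and 6.88 before the point and between 0.0244 and 0.750 after it, so the highest distal bin, from 111.5 Mb, passed the lowest proximal bin, from 94 Mb. A ratio of 0.5 or lower in a bin with at least 5 wild-type peaks was met by 0 of 29 proximal and 31 of 33 distal bins. Over all autosomes 17.5% of such bins met it, and 3.41% of those outside chromosomes 1 and 8. The rule that chose the stretch used this ratio, so nothing is read from the count.

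Neither side was uniform. Splitting the distal side again by the same procedure placed an edge at 113 Mb, with a gain of 13.0 units. Between 105.5 and 113 Mb there were 413 wild-type and 110 rescue peaks, a ratio of 0.266. From 113 Mb to the end there were 457 and 49, a ratio of 0.107. Wild-type density was 55.1 and 51.7 peaks per Mb in these pieces, against 14.7 and 5.54 in the rescue. The longest piece of the distal side without a rescue peak ran from 113572361 to 114226047 (654 kb) and held 41 wild-type peaks, with scores of up to 225.55. On the proximal side the edge fell at 93.5 Mb, with a gain of 25.5 units: before it there were 78 wild-type and 251 rescue peaks (ratio 3.22), after it 656 and 817 (ratio 1.25). Here it was the wild-type list that changed, from 22.3 to 55.6 peaks per Mb, while the rescue had 71.7 and 69.2.

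The distal side was next set beside the rest of the genome. The rescue list was sparse there in absolute terms, at 0.288 of its density over all autosomes (33.7 peaks per Mb), and the wild-type list was dense, at 1.96 times its own (27.1). Before 90 Mb chromosome 11 was dense in both lists, with 44.6 wild-type and 70.8 rescue peaks per Mb, against 23.8 and 35.7 on the 16 autosomes other than 1, 8 and 11. Of the autosomes only 1 and 8 came near the distal side in both lists. In the wild type they held 41.7 and 39.4 peaks per Mb, and in the rescue 11.5 and 10.3. The 16 other autosomes ranged from 19.0 to 27.7 in the wild type and from 29.0 to 51.7 in the rescue.

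When the autosomes were laid out in 138 stretches as long as the distal side, its ratio of 0.183 was the second lowest. The lowest, 0.173, was the end of chromosome 8 from 115395016 to 131738871, with 819 wild-type and 142 rescue peaks. The 19 lowest stretches were the distal side, all 11 stretches of chromosome 1 and all 7 of chromosome 8, with ratios up to 0.424. The 20th, on chromosome 2, stood at 0.811, and the median of the 137 other stretches was 1.44. The neighbouring stretch of chromosome 11 that ends at the point had 1.47. The same scan over whole chromosomes, with at least 8 bins on each side, gave chromosome 11 the largest gain of the 19 autosomes (421 units, again at 105.5 Mb). Chromosome 13 followed with 355 units, where the ratio went up rather than down, from 1.55 to 8.31 at 112.5 Mb.

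**Figure D2:**
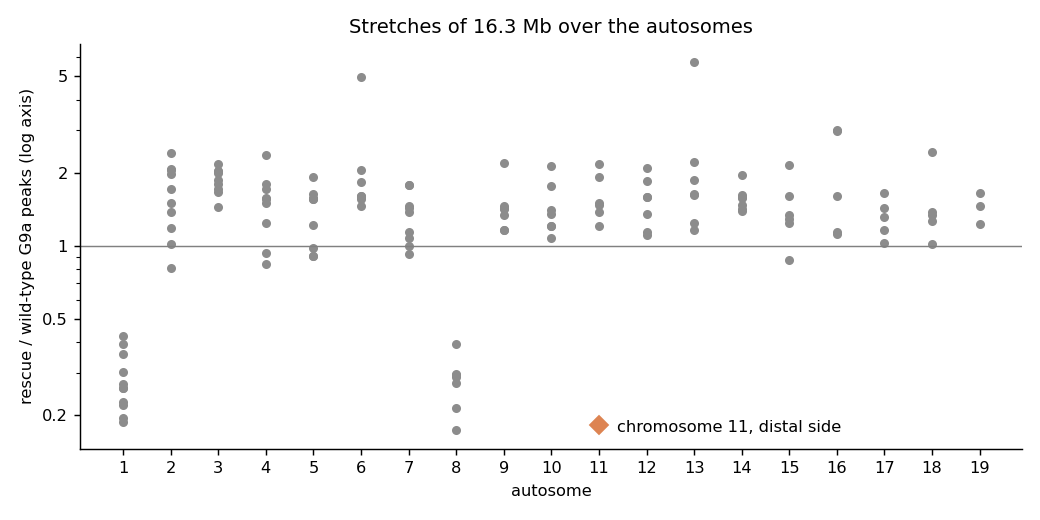
Ratio of rescue to wild-type G9a peaks (log axis) in stretches of 16.3 Mb on each autosome; each grey point is 1 stretch and the diamond is the distal side of chromosome 11. The diamond, at 0.183, lies among the points of chromosomes 1 and 8, all at or below 0.424, while the other points start at 0.811.

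Peak scores and widths were compared on each side within each list; the score is the authors' own, from their peak caller, and larger values mark stronger peaks. The rescue peaks listed on the distal side had scores similar to those on the proximal side. Their median score was 27.86 (95% interval of the median 26.37 to 29.53), against 27.25 (26.63 to 27.98) on the proximal side and 26.86 over all autosomes. The lowest rescue scores were 20.14 on the distal and 20.02 on the proximal side, so weaker peaks could not enter either median. Wild-type scores had medians of 33.17 (31.33 to 35.15) and 30.94 (29.61 to 33.54). Rescue peaks had a median width of 603 bp (536 to 689) beyond the point and 654.5 bp (630 to 678) before it, with overlapping intervals. Of them 17.0% reached 1 kb beyond the point, against 23.7% before it. Wild-type peaks had median widths of 975.5 bp (913 to 1029) on the distal and 922 bp (874 to 986) on the proximal side. All 4 widths exceeded those of the whole autosomes, 615 bp in the wild type and 458 bp in the rescue. Rescue peaks of chromosome 11 before 90 Mb also had a median width of 603 bp. With fewer peaks, the rescue covered 0.675% of the distal side and 5.58% of the proximal side. The wild type covered 6.60% and 5.73%.

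The lower number on the distal side held for weak and strong rescue peaks alike. Each G9a list was divided into 5 classes of equal size by score over the whole genome, class 5 being the strongest. In the rescue the distal to proximal number of peaks was 0.110 in class 1 (22 against 200 peaks), 0.171, 0.159 and 0.140 in classes 2 to 4, and 0.164 in class 5 (33 against 201). In the wild type it ran from 1.02 in class 1 to 1.42 in class 5 (194 against 137). Raising the lowest score in both lists to 50 left 132 rescue and 199 wild-type peaks before the point and 25 and 247 after it, a distal to proximal ratio of 0.153. At a lowest score of 100 there were 30 and 68 before it and 7 and 111 after it, and the ratio was 0.143. At 150 only 5 distal rescue peaks were left, against 65 in the wild type, with 13 and 38 before the point; the ratio was 0.225.

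**Figure D3:**
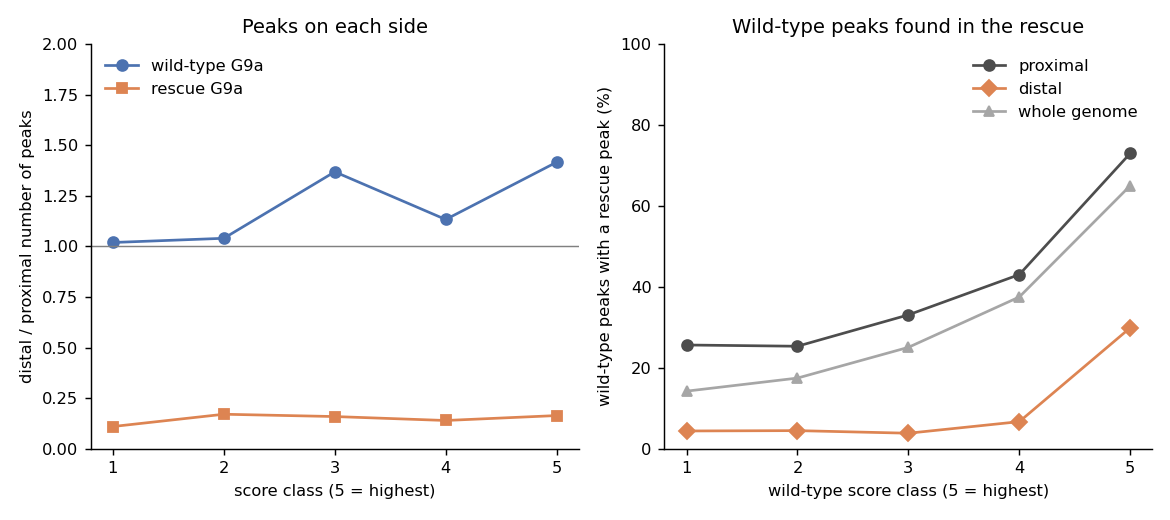
Left, number of distal divided by number of proximal peaks in 5 score classes of each G9a list (class 5 the strongest); right, percent of wild-type peaks overlapping a rescue peak in the 5 wild-type score classes on each side and over the genome. The rescue stays between 0.110 and 0.171 in every class, and the distal share of wild-type peaks found in the rescue stays at or below 6.70% up to class 4 and reaches 29.9% in class 5.

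Wild-type sites were followed into the rescue one by one, counting a peak as found when it overlapped a rescue peak by at least 1 bp. On the proximal side 290 of 734 wild-type peaks were found (39.5%; exact binomial 95% interval 36.0 to 43.2) and on the distal side 91 of 870 (10.5%; 8.51 to 12.7). Over the genome the share was 31.9%, and on chromosomes 1 and 8 it was 12.2% on each. The wild-type peaks that were found beyond the point were strong ones, with a median score of 89.36, against 31.51 for the 779 that were not. On the proximal side these medians were 43.40 and 27.60. Among wild-type peaks scoring 100 or higher, 57 of 68 were found on the proximal side (83.8%; 72.9 to 91.6) and 43 of 111 on the distal side (38.7%; 29.6 to 48.5), against 74.9% over the genome. In score class 5 the shares were 73.0% and 29.9% (65.0% over the genome), and in class 1 they were 25.6% and 4.40% (14.2% over the genome).

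The reverse share went the other way. Of the 159 distal rescue peaks 93 lay on a wild-type peak (58.5%; 50.4 to 66.2), against 313 of 1068 proximal ones (29.3%; 26.6 to 32.1) and 27.2% over the genome. It was also above the genome value on chromosome 1 (46.4%) and chromosome 8 (49.0%). From 113 Mb to the end it was 77.6%, 38 of 49. Among the 25 distal rescue peaks scoring 50 or higher, 24 were on a wild-type peak, against 90 of 132 (68.2%) on the proximal side and 64.4% over the genome. So a distal rescue peak was rarer but lay more often at a site of the wild type. The 66 distal rescue peaks without a wild-type peak had a median score of 25.62, against 29.07 for the 93 that lay on one and 25.42 for the proximal ones without one. Their scores reached 54.73 and their median width was 452 bp.

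Single sites show how unequal this was. The strongest wild-type G9a peak of the distal side, from 118443758 to 118449156, had a score of 793.2 and held the strongest distal rescue peak, of 1575 bp and score 589.83. The second, from 114437330 to 114443117 (5788 bp, score 737.66), had no rescue peak. The third, from 113571069 to 113574228 (score 621.02), held a rescue peak of 390 bp with a score of 28.35. The fourth, from 120522578 to 120527408 (score 538.27), had none, and the fifth, from 117403983 to 117406144 (score 515.64), held one with a score of 27.86. Scores of the 2 lists are on scales of their own, so they show a rank within each list and not a change in binding. Before the point each of the 5 strongest wild-type peaks held a rescue peak. The first, from 104149676 to 104157557 with a score of 912.2, held one with a score of 66.6, and the other 4 held peaks with scores of 33.91 to 235.79.

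Read from the rescue side, the 5 strongest distal rescue peaks all lay on wild-type peaks. After the one named above came 114913003 to 114914888 (rescue score 290.98, wild-type score 240.76) and 119353890 to 119354856 (234.87 and 373.55). The remaining ones lay from 118463897 to 118464923 (186.09 and 257.28) and from 118546311 to 118547488 (175.84 and 155.38). The first, the fourth and the fifth lay close together. On the proximal side the 5 strongest rescue peaks also lay on wild-type peaks, led by 103781049 to 103783057 (rescue score 779.15, wild-type score 431.37). No gene was assigned to these positions, since no annotation of the mm9 build was used here.

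The Ezh2 lists were then followed across the same point. None of them showed the drop seen for rescue G9a. The wild-type libraries held 83 (library 0) and 232 peaks (library 1) on the proximal side and 68 and 165 on the distal side, and the knockout held 138 and 140. In peaks per Mb the distal to proximal ratios were 0.767 and 0.666 in the wild-type libraries and 0.950 in the knockout, against 0.139 for rescue G9a. Library 0 is the shorter and library 1 the longer of the wild-type lists, and they differed from each other by 2.80-fold before and 2.43-fold after the point. By the sample titles, library 0 shares its replicate number with the knockout, and library 1 does not.

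Relative to the wild type, the number of knockout Ezh2 peaks was higher on the distal than on the proximal side, but against which library this passed counting error depended on the 0.2 Mb left out. Against library 0 the ratio of knockout to wild-type peaks was 1.66 (binomial 95% interval 1.26 to 2.21) before and 2.06 (1.53 to 2.79) after the point. The distal to proximal ratio was 1.24 (0.816 to 1.88). Against library 1 it was 0.595 (0.478 to 0.737) before and 0.848 (0.672 to 1.07) after, and 1.43 (1.04 to 1.96) between the sides. With the 0.2 Mb kept in, the proximal counts were 155, 255 and 209, and the ratio between the sides became 1.53 (1.05 to 2.22) against library 0 and 1.04 (0.766 to 1.398) against library 1. The library whose interval lay above 1 was thus the other one. Without the 0.2 Mb, against the mean of both the sides stood at 0.876 and 1.20, a ratio of 1.37. The values against each library, 1.24 and 1.43, had an SD of 0.133 (n = 2). Both values use the same knockout counts, so this SD leaves out the counting error and the variation of the knockout. The lists ended at unlike lowest scores over the autosomes: 30 in library 1, 43.02 in library 0 and 43.03 in the knockout. With 43.03 as the lowest score in all lists, the sides stood at 1.30 and 1.75, a ratio of 1.35. The proximal value against the mean thus lay below or above 1 by the lowest score used. The wild-type libraries set against each other gave 0.868 (0.585 to 1.29). Among Ezh2 peaks with scores of at least 100 the value against the mean was 1.00, with 42 proximal and 31 distal knockout peaks. That cut kept unlike parts of the proximal lists: 50.6% of library 0, 35.8% of library 1 and 30.4% of the knockout. Without the bin from 118.5 to 119 Mb, where the 3 lists held 20, 10 and 29 peaks, the value against the mean was 1.25.

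**Figure D4:**
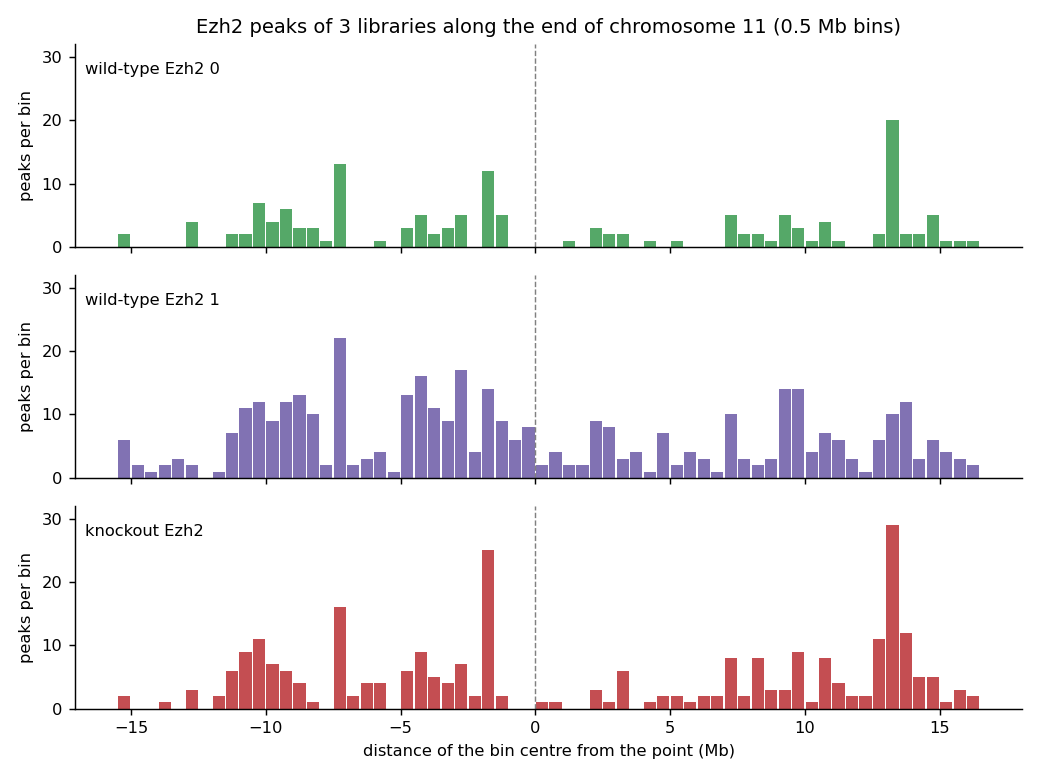
Number of Ezh2 peaks per 0.5 Mb bin in the 2 wild-type lists and the knockout list, against the distance of the bin centre from the point in Mb. The lists continue across the dashed line, with 83, 232 and 138 peaks before it and 68, 165 and 140 after it, and the tallest knockout bins hold 25 peaks before and 29 after it.

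The scan used for G9a did not place its best edge at 105.5 Mb for any pair of Ezh2 lists. For the knockout against library 0 the gain at that edge was 0.556 units, and the best of the 61 edges, at 98.5 Mb, reached 1.09. Against library 1 it was 2.55 at 105.5 Mb, and the best edge lay at 117.5 Mb with 10.0 units, where the ratio went from 0.594 to 1.49. Library 1 against library 0 had its best edge at 118.5 Mb (5.47 units, from 3.00 to 1.25), so the wild-type libraries also differed from each other near there. The G9a gain of 276 units rested on more peaks, so the gains of G9a and Ezh2 are not on equal terms. In the stretches of equal length over the autosomes, the distal side ranked 3rd highest of 138 for knockout to library 0 (2.06, median of the others 1.13) and 7th for knockout to library 1 (0.848, median 0.532). Other stretches of these chromosomes were near it: chromosome 11 from 56468433 to 72812288, whose G9a ratio was 1.21, had 2.32 and 0.768. The stretch just before the point had 1.35 and 0.807 with the 0.2 Mb in it, and the end of chromosome 8 had 1.77 and 1.01. Chromosome 8, which shares the low G9a ratio, had 1.62 and 0.613, and chromosome 1 had 0.843 and 0.304. The low rescue G9a ratio of chromosomes 1 and 8 and of the distal side therefore went with knockout Ezh2 values on both sides of the 1.10 and 0.538 of the 16 other autosomes.

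Most Ezh2 sites found in both wild-type libraries also had a knockout peak, on either side of the point. Overlapping Ezh2 peaks were merged into regions, and 29 of the 39 distal regions shared by the wild-type libraries had a knockout peak (74.4%; exact binomial 95% interval 57.9 to 87.0). Proximally 34 of 50 did (68.0%; 53.3 to 80.5), and over the genome 62.6% did. These intervals overlap widely, and with so few regions a difference of moderate size was not detectable. With library 1 alone the distal and proximal shares were 24.2% and 22.9%, and with library 0 alone 59.4% and 63.0%, so the order of the sides turned with library 0; it also turned with peaks up to 1 kb apart joined (75% and 76.3%). Regions found in the knockout alone numbered 58 on the distal and 40 on the proximal side, 3.55 and 2.61 per Mb, against 0.716 per Mb of the autosomes. Ezh2 regions of any kind were also dense here, with 14.0 and 17.9 per Mb against 5.59. The regions found in the knockout alone were short and weak on both sides, with median widths of 317 and 314 bp and median scores of 47.36 and 46.87. Of the knockout peaks 38.6% on the distal side and 44.9% on the proximal side lay on a library 0 peak (52.5% over the genome), and 57.9% and 71.0% on a library 1 peak (71.0% over the genome).

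The median knockout Ezh2 score was 57.18 (53.38 to 65.46) on the distal side and 70.61 (62.51 to 78.44) on the proximal side, and the median widths were 397.5 bp (368 to 463) and 502.5 bp (461 to 589). Wild-type library 0 had median scores of 107.49 and 100.91 and median widths of 663 and 687 bp, and library 1 had 51.23 and 49.32, and 1167 and 1003 bp. Only the knockout had a lower median score beyond the point, and its intervals on the sides overlapped. Its distal median was near those of chromosome 11 before 90 Mb (58.3, with a width of 415 bp) and of the whole autosomes (58.72, with a width of 368 bp).

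The strongest Ezh2 sites of the distal side were present in all 3 lists. The first, from 119407637 to 119411218 in the knockout, had scores of 1759.63 in the knockout, 2728.62 in library 0 and 3100 in library 1. It was followed by 118949719 to 118952064 (knockout score 1143.7) and 113926080 to 113928519 (870.44), and then by 118915584 to 118919149 (665.98) and 112645328 to 112646846 (662.06). The second and the fourth of these lie in the same bin, from 118.5 to 119 Mb. Before the point the strongest site, from 98187928 to 98190807, had scores of 1974.35, 2867.23 and 3100. Several of the strongest library 1 peaks share the score of exactly 3100, so that score does not rank them. Rescue G9a was called in 2 of the 39 distal Ezh2 regions described above (5.13%; 0.627 to 17.3) and in 7 of the 50 proximal ones (14.0%; 5.82 to 26.7), against 9 (23.1%; 11.1 to 39.3) and 7 (14.0%) for wild-type G9a. Over the genome the shares were 20.0% for rescue and 16.0% for wild-type G9a. The stretch was chosen for its few rescue peaks, so nothing is read from the low distal rescue share. The other intervals held their genome shares.

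What lies behind the low rescue G9a ratio beyond 105.5 Mb was not tested. The rescue cells differ from the wild type by their returned G9a and by the missing GLP, and with 1 library each these cannot be told apart from a difference between libraries. DNA copy number was not measured here, so the ratios of peak numbers are not corrected for it, and its part in them was not tested.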

How the data were processed

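The deposited files were peak lists of 5 ChIP-seq libraries, 1 list per library; the 3 input libraries were not analysed here. The submitters' processing notes name Bowtie 0.12.7, MACS 1.4 and mm9. The combined wild-type inputs served as control for Ezh2 and G9a, per the series' design text; the control of the knockout and rescue lists and the call threshold are not given in the sources used here. Each deposited peak carries the score that the authors' caller gave it, with no read count, so depth is unknown and the precision of a count of peaks was taken from binomial intervals, which treat peaks as independent. Groups followed the sample titles.

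Peaks were assigned to bins of 0.5 Mb and to sides by their midpoints. Each candidate point needed at least 2 bins on each side. Peaks overlapped with 1 bp or more shared. Stretches for comparison were counted back from each chromosome end, leaving out a remainder. Intervals of medians were order-statistic intervals. No test between conditions was run. Regions were named by position: on each side the 5 highest-scoring peaks of each G9a list and of the knockout, and the 3 of each wild-type Ezh2 library, of which a part is printed. The members, the rule and the settings were chosen with earlier results of these data known. The scan and the overlap were tested on simulated data.

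Python 3.11.15, numpy 2.4.6, pandas 2.3.3, scipy 1.17.1 and matplotlib 3.10.9 were used, with mm9 chromosome lengths from GenomeInfoDb 1.38.1. Positions are 1-based.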

Additional observations from a re-analysis of the deposited data

How the results depend on the processing

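The point lay between 105 and 106 Mb under all 10 alternatives run for it, and the distal to proximal ratio of G9a between 0.105 and 0.153 under its 11. The ratios on each side depended on the score minimum: with scores of at least 50 they were 0.663 before and 0.101 after the point, and with scores of at least 100 they were 0.441 and 0.0631. With equal list lengths the ratio before the point was 1.19, and in base pairs covered the ratios were 0.973 and 0.102. In the shares that follow, a score minimum was applied to both lists. The shares of strong peaks in the Results cut only the list being followed, so they are another measure. Wild-type peaks found in the rescue (before, after) came to 53.5% and 15.9% with a gap of up to 1 kb. They came to 27.6% and 8.5% with scores of at least 50, and to 14.7% and 6.31% with scores of at least 100. Rescue peaks found in the wild type came to 38.6% and 68.6%, 43.9% and 88.0%, and 33.3% and 100% (7 peaks) in the same order. They came to 33.0% before the point with equal list lengths, and to 46.0% after a point 1 Mb earlier.

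With scores of at least 50, which leaves only the stronger peaks, median scores (before, after) were 77.49 and 91.67 in the wild type and 67.25 and 65.81 in the rescue, and median widths were 1636 and 1674 bp, and 1201.5 and 1059 bp. With peaks within 1 kb merged, widths were 1009.5 and 1100 bp in the wild type and 717 bp before the point in the rescue.

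The Ezh2 distal to proximal ratio, 1.37, was 1.00 with scores of at least 100, 1.08 in base pairs covered, 1.18 with the 0.2 Mb left out by the rule kept in and 1.24 with a point 1 Mb earlier. With 1 of the wild-type Ezh2 libraries left out it was 1.24 to 1.43, from 0.595 to 1.66 before and 0.848 to 2.06 after the point; with the 0.2 Mb kept in as well it was 1.04 to 1.53. The kept share of Ezh2 regions was taken without the 0.2 Mb throughout. With 1 wild-type library left out that share was 22.9% to 63.0% before and 24.2% to 59.4% after the point. It was lower after the point with library 0 alone, and with both libraries and a gap of up to 1 kb (76.3% and 75%). Of 150 alternative values, 44 moved by more than their error. The alternatives without the fullest Ezh2 bin, and with a library left out and the 0.2 Mb kept in, were chosen after seeing the data. No paired analysis was possible because no test was run and the groups share at most 1 replicate number. Causes of these shifts were not tested.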
